A study of Mus musculus with 108 samples.

Results

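Tmem178b and Mapk4 were 2 of the 20923 protein-coding mouse genes with a curated RefSeq transcript. They were chosen by a measured value, the length of the unbroken stretch of bins that left the quiescent chromatin state between 3 and 12 months of age. Tmem178b held the longest stretch that went to the Polycomb state on a standard diet, and Mapk4 held most of the longest stretch that went to the age-related state 7 under caloric restriction. The lengths of those stretches, and the shares of the genes in the new state in the group that chose them, are therefore given as a description and not as a finding.

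The study used ChIP-seq for H3K4me3, H3K27me3, H3K27ac and H3K4me1 on archived (formalin-fixed and paraffin-embedded) liver of female C57BL/6 mice, with 108 libraries from 31 animals. The groups used here were SD 3m (standard diet, 3 months of age, 8 animals and 30 libraries), SD 12m (standard diet, 12 months, 8 animals and 29 libraries) and CR 12m (12 months, 30% caloric restriction begun at 3 months, 9 animals and 29 libraries). The libraries behind the 2 marks that matter most here were uneven, with 7 H3K27me3 and 7 H3K4me3 libraries in SD 3m, 8 and 8 in SD 12m, and 6 and 5 in CR 12m. The libraries of a group were merged before 1 of 8 chromatin states was assigned to every bin of 200 bp, so each group has 1 segmentation, the variation among mice could not be measured, and the depth of reads under a label is unknown.

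Whole liver was used, so a label summarises a mixture of cells, and fewer cells of a type and less of a mark per cell cannot be told apart. As a check of the tissue, the TSS of all 6 hepatocyte markers examined (Alb, Apoa1, Apob, Ttr, Serpina1a and Cyp2e1) lay in states 1 to 5, the promoter and enhancer states, in all 3 groups. None of the 3 neuron markers (Rbfox3, Snap25 and Syt1) had its TSS in those states in any group. Of the 5 markers of other liver cells (Ptprc, Clec4f, Pecam1, Des and Krt19), 2 had their TSS there in each group, Ptprc and Pecam1 in SD 3m and SD 12m, and Pecam1 and Krt19 in CR 12m.

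As background, Polycomb repressive complex 2 places H3K27me3 on nucleosomes, and the domains that carry this mark usually start at CpG-rich promoters of genes that are silent in a tissue and can spread over the gene and its surroundings. The study named the state marked by H3K27me3 repressed Polycomb (state 6) and the state with none of the 4 marks quiescent (state 8). State 7, with weak H3K4me3 and minimal H3K27me3, was named repeats or cLAD, after the constitutive lamina-associated domains at the edge of the nucleus. The keys of the figures name only its H3K4me3. State 7 was also described as age-related.

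Tmem178b encodes a multipass membrane protein that is little characterised. Its paralog Tmem178 encodes a protein of the endoplasmic reticulum that restrains calcium signalling through Nfatc1 in osteoclast precursors. Mapk4 encodes ERK4, an atypical mitogen-activated protein kinase that lacks the activation motif of the classical kinases and is best known for binding and activating the kinase MK5, the product of Mapkapk5.

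Tmem178b lies on the plus strand of chr6:39871436-40255150 (mm10), in the longest curated transcript, NM_001360978.1. The gene is 383.7 kb long and has 4 exons, and its introns measure 130.7, 203.1 and 37.99 kb. A shorter transcript, NM_001004182.4, starts within intron 2 at position 40110253. The 250 bases before each start are shown because one start lay in a Polycomb domain in every group and the other was reached by state 6 only in the older groups. The sequences are those of RefSeq in GRCm38.p6, on the plus strand, 5′ to 3′, with each CpG in capitals, since CpG density marks the promoters at which Polycomb domains usually form.
Tmem178b NM_001360978.1, chr6:39871186-39871435: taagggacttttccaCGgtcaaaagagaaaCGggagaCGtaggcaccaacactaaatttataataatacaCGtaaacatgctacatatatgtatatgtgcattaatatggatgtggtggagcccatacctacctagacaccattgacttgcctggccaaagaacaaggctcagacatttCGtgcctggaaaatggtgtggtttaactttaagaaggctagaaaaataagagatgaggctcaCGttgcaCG
Tmem178b NM_001004182.4, chr6:40110003-40110252: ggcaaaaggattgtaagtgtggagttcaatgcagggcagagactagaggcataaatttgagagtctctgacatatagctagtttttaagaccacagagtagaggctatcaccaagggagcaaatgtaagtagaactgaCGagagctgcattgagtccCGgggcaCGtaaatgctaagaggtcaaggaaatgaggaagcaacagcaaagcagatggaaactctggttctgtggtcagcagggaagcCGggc

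The upstream start had 7 CpG in these 250 bases and the internal start had 4, against a median of 6 over 32851 mouse promoters. As many CpG or more were found in 46.3% and 62.23% of those promoters, so neither window was CpG-rich. The CpG-rich part of the gene lay after the upstream start, as exon 1 held 79.09 CpG per kb and the whole gene 8.369 per kb.

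At 3 months, state 6 formed a single domain of 24 kb at the start of Tmem178b, from 9.6 kb before to 14.4 kb after the TSS. From there an unbroken stretch of 389.6 kb in state 8 ran past the end of the gene to 404.0 kb from the TSS. State 6 thus covered 3.752% of the 1919 bins of the gene in SD 3m, against 94.63% in SD 12m and 77.64% in CR 12m. State 8 covered 96.25% at 3 months, 5.367% in SD 12m and 21.63% in CR 12m, while the remaining 14 bins there (0.7295%) were in state 7, and no bin of the gene was in states 1 to 5 in any group.

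**Figure D1:**
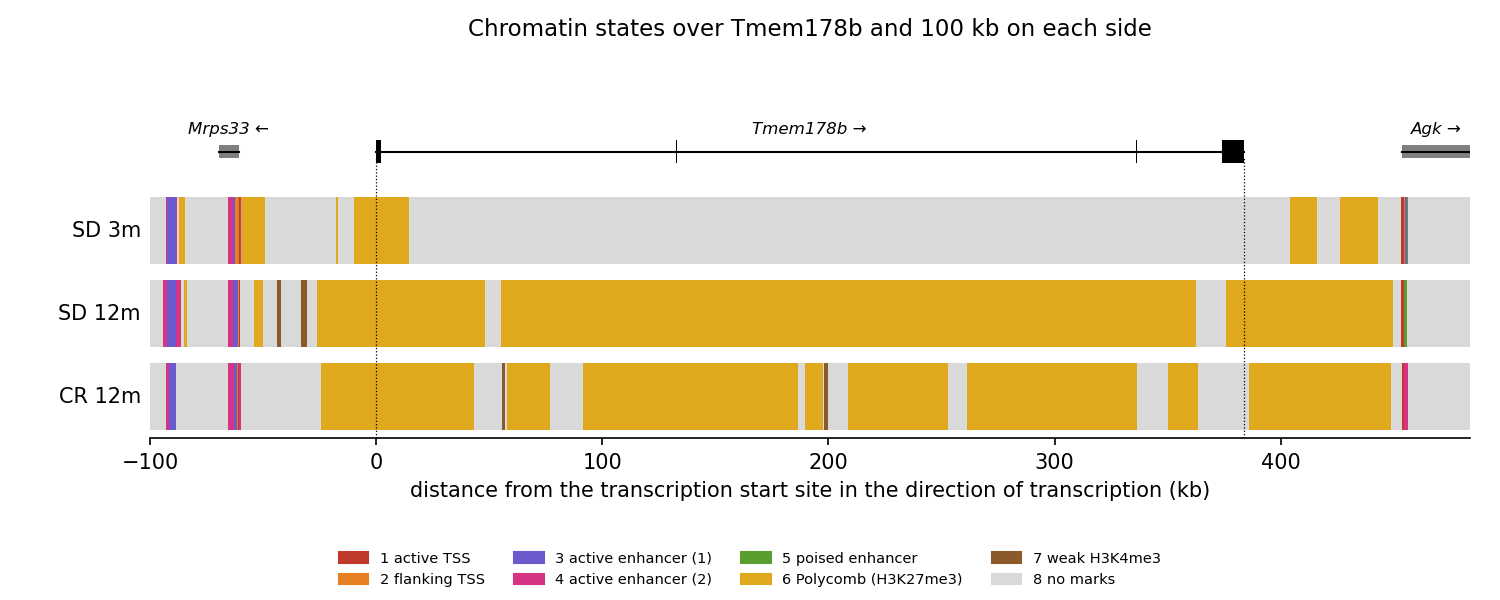
Chromatin states of every 200 bp bin over Tmem178b and 100 kb on each side in SD 3m, SD 12m and CR 12m (rows), by distance from the TSS in kb along the x axis; colours give the state, black boxes the exons and dotted lines the ends of the gene, and genes named Gm or LOC are not drawn. State 6 covers 24 kb at the TSS in SD 3m, most of the gene in SD 12m with 2 gaps, and the gene in 7 pieces in CR 12m.

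Of the 1847 bins of the gene that were in state 8 at 3 months, 1744 (94.42%) were in state 6 in SD 12m and 1418 (76.77%) in CR 12m. A gene was called when 50% or more of its state 8 bins were in the new state, among 4199 protein-coding genes with at least 100 such bins. By this call, 376 genes (8.95%) went to state 6 in SD 12m and 241 (5.74%) in CR 12m, Tmem178b among them in each group. Tmem178b was placed 69th of the 4199 genes in SD 12m, from which it was chosen, and 81st in CR 12m, where the median gene had 0% in state 6 and 90% of genes had at most 46.01% and 32.29%. Among the 1826 of those genes of 100 kb or more it was placed 15th and 24th. By length it was the 355th of 20923 genes. Both older groups were set against the same SD 3m segmentation, so the 2 comparisons are not independent.

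In SD 12m the gene was covered by 3 stretches of state 6. The domain at the start measured 74.0 kb, from 26.0 kb before to 48.0 kb after the TSS. A gap of 7.2 kb in state 8 followed, and then the stretch by which the gene was chosen, 307.2 kb in chr6:39926601-40233800, which lay wholly within the gene. After a gap of 13.4 kb in state 8, the last stretch, of 73.8 kb, began in exon 4 and ended at 449.6 kb, short of the TSS of Agk, the acylglycerol kinase gene, at 453.6 kb. State 6 thus ran past both ends of the gene, and on the far side it stopped within a few kb of the next active promoter.

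The 7.2 kb gap was almost wholly repetitive, with 94.29% of its bases marked as repeat in the reference, whereas the 13.4 kb gap had 19.49% and the 307.2 kb stretch 19.08%. The sequence across the boundary between the first gap and the long stretch is printed because the change of state nearly coincided with the end of the repeat. In this part of intron 1, read on the plus strand of GRCm38.p6, bases in capitals are not marked as repeat.
Start of the state 6 stretch, chr6:39926451-39926750: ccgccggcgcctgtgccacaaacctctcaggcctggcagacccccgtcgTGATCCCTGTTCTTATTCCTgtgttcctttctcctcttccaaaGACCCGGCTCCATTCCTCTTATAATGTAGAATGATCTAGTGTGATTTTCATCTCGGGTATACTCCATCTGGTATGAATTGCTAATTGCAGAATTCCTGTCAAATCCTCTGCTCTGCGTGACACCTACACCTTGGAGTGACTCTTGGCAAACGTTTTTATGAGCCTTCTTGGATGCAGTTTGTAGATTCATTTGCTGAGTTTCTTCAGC

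Of the 150 bases before the boundary, 72 were repeat, and of the 150 bases after it, 0. The last repeat base was at position 39926542, 59 bases before the first base of the stretch, which is less than the 200 bp of a bin. This held in SD 12m only. In CR 12m the gap measured 12.4 kb, with 59.91% repeat, and state 6 began again only at position 39929401. Over all bins of the gene in state 8 at 3 months, the repeat share was 19.21% in the bins that moved to state 6 in SD 12m and 45.64% in those that stayed, and mostly repetitive bins were 11.24% and 40.78% of them. In CR 12m the difference was smaller, at 19.15% and 26.06% of the bases. Short reads align poorly to repeats, and the part of mapping in these values was not tested.

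In CR 12m state 6 was in 7 pieces over the gene, of 7.6 to 95.0 kb with a median of 44.2 kb, separated by 9 stretches of state 8 of 0.8 to 22.4 kb and 2 of state 7 of 1.4 kb each. The start domain measured 67.8 kb, from 24.6 kb before to 43.2 kb after the TSS, a little less at each end than in SD 12m. The positions largely nested. In the order SD 3m, SD 12m, CR 12m, the states were 8, 6 and 6 over 282.4 kb (73.58% of the gene), 8, 6 and 8 over 63.6 kb (16.57%), 8 in all over 19.4 kb (5.055%) and 6 in all over 14.4 kb (3.752%). State 6 was present in CR 12m but absent in SD 12m over only 1.2 kb. In all, 17.61% of the bins of the gene differed between the 12-month groups. The H3K27me3 libraries numbered 8 in SD 12m and 6 in CR 12m, and the part of depth in this difference was not tested. Of the long stretch itself, 82.55% was in state 6 and 16.54% in state 8 in CR 12m.

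Bins that stayed in state 8 in CR 12m but moved in SD 12m lay in several gaps along the gene and not only at one end. At the 3′ end, a gap of 22.4 kb took in all of exon 4 and had a repeat share of 17.62%. Part of it was in state 8 in SD 12m too. A gap of 3.4 kb (186.4 to 189.8 kb from the TSS) had 6.235%. The gaps of 14.4 kb (77.0 to 91.4 kb from the TSS), 9.2 kb (199.6 to 208.8 kb), 8.2 kb (253.0 to 261.2 kb) and 13.4 kb (336.6 to 350.0 kb) had repeat shares of 25.15%, 11.35%, 17.78% and 29.16%, which spread to each side of the 20.75% of the whole gene. The bins in state 8 in all 3 groups were the 7.2 kb repetitive block in intron 1 and a block that spans the end of intron 3 and the start of exon 4.

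Exon 1 was in state 6 in all 11 bins in each group, and the small exons 2 and 3 went from state 8 to state 6 in each older group. In intron 1, state 6 covered 9.48% of the 654 bins at 3 months, 94.5% in SD 12m and 77.68% in CR 12m. Intron 2, the longest, held 0% of its 1016 bins in state 6 at 3 months, against 100% in SD 12m and 88.68% in CR 12m. Intron 3 had 0%, 68.95% and 36.84% of its 190 bins in state 6. Exon 4, which holds the 3′ end of the gene, had 49 bins, of which 0 were in state 6 at 3 months, 40 (81.63%) in SD 12m and 0 again in CR 12m. In SD 12m the least covered was intron 3, which holds most of the 13.4 kb gap, and the gene downstream of that gap was wholly in state 6, whereas in CR 12m it was exon 4. Exon 4 was also where the 12-month groups differed most. The 20 bins within 2 kb of the internal start at 40110253 were all in state 8 in SD 3m and all in state 6 in SD 12m and CR 12m, whereas those around the upstream start were in state 6 throughout.

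**Figure D2:**
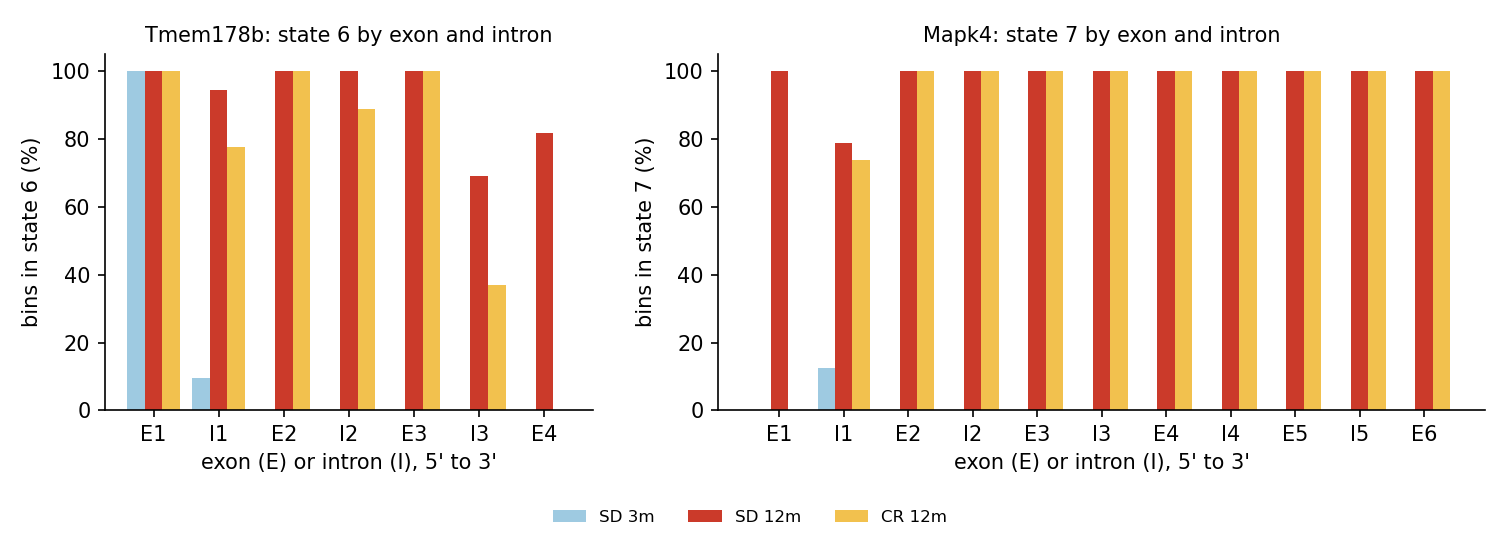
Percent of bins in state 6 for each exon (E) and intron (I) of Tmem178b (left) and in state 7 for those of Mapk4 (right), 5′ to 3′ along the x axis, with a bar for each group (1 segmentation each, so no error bars). In Tmem178b the bars of CR 12m fall to 36.84% in intron 3 and 0% in exon 4, and in Mapk4 every exon and intron from exon 2 on is at 100% in both older groups.

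Both flanks of Tmem178b changed. Of the 500 bins of each flank, 38.8% downstream and 34.8% upstream were in another state in SD 12m than at 3 months, and 36% and 31% in CR 12m. In the 100 kb downstream, state 6 covered 29.0% at 3 months, 65.8% in SD 12m and 62.6% in CR 12m, and the 12-month groups differed in 5.6% of the 500 bins there. At 3 months this flank held separate domains of 12.2 and 16.8 kb in state 6, which at 12 months lay within 1 stretch. In the 100 kb upstream, state 6 covered 23.6%, 30.8% and 24.6%, and in the nearest 50 kb 22.8%, 52.0% and 49.2%. There the domain at the start widened, while a domain of 10.6 kb beside Mrps33 (from 59.6 to 49.0 kb before the TSS at 3 months) shrank to 3.8 kb in SD 12m and was in state 8 in CR 12m. Mrps33 encodes a protein of the mitochondrial ribosome. Its TSS was in state 1 in SD 3m and SD 12m and in state 4 in CR 12m. In CR 12m a stretch of 0.6 kb in state 1 lay directly beside the bin of that TSS. The TSS of Agk was in state 1 in each group, and its body stayed in state 8 (96.14%, 96.97% and 96.14% of its bins). The pseudogene Gm7554 went from state 8 to state 7 in SD 12m only (3 bins), and the pseudogene Gm7556 was in state 8 in each group.

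Mapk4 lies on the minus strand of chr18:73928486-74064949 (mm10), in transcript NM_172632.2. The gene is 136.5 kb long with 6 exons, and most of it is intron 1 (93.56 kb) and intron 2 (32.62 kb), whereas introns 3 to 5 measure 1.962, 0.907 and 2.802 kb. A shorter transcript, NM_001360936.1, starts within intron 2.

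At 3 months Mapk4 was quiescent but for 1 stretch of 11.6 kb in state 7 within intron 1, from 32.9 to 44.5 kb after the TSS. State 7 covered 8.492% of the 683 bins of the gene at 3 months, 85.51% in SD 12m and 81.84% in CR 12m. State 8 covered the rest, 91.51%, 14.49% and 18.16%, and no bin of the gene was in states 1 to 6 in any group. Unlike Tmem178b, Mapk4 thus had no Polycomb domain at its start in these 3 segmentations.

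**Figure D3:**
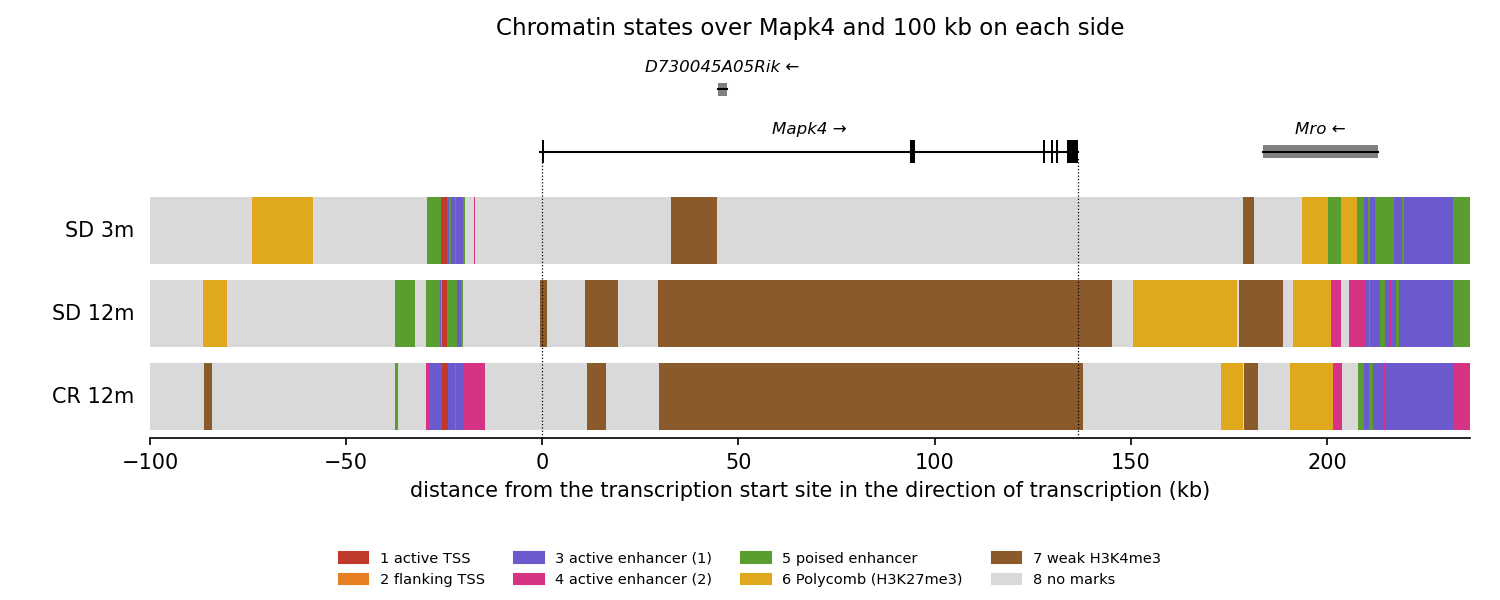
Chromatin states of every 200 bp bin over Mapk4 and 100 kb on each side in SD 3m, SD 12m and CR 12m (rows), by distance from the TSS in kb in the direction of transcription; colours give the state, black boxes the exons and dotted lines the ends of the gene, and genes named Gm or LOC are not drawn. An 11.6 kb stretch of state 7 in SD 3m lies inside a stretch of 115.8 kb in SD 12m and of 108.0 kb in CR 12m.

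Of the 625 bins in state 8 at 3 months, 526 (84.16%) were in state 7 in SD 12m and 501 (80.16%) in CR 12m. By the call used above, 90 of 4199 genes (2.14%) went to state 7 in SD 12m and 16 (0.381%) in CR 12m, Mapk4 among them in each group. Mapk4 was placed 26th of the 4199 genes in SD 12m and 3rd in CR 12m, and 4th and 1st among the 1826 genes of 100 kb or more. The place in CR 12m comes from the comparison that chose the gene. Again the median gene had 0% in the new state, and 90% of genes had at most 7.954% in SD 12m and 1.843% in CR 12m.

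**Figure D4:**
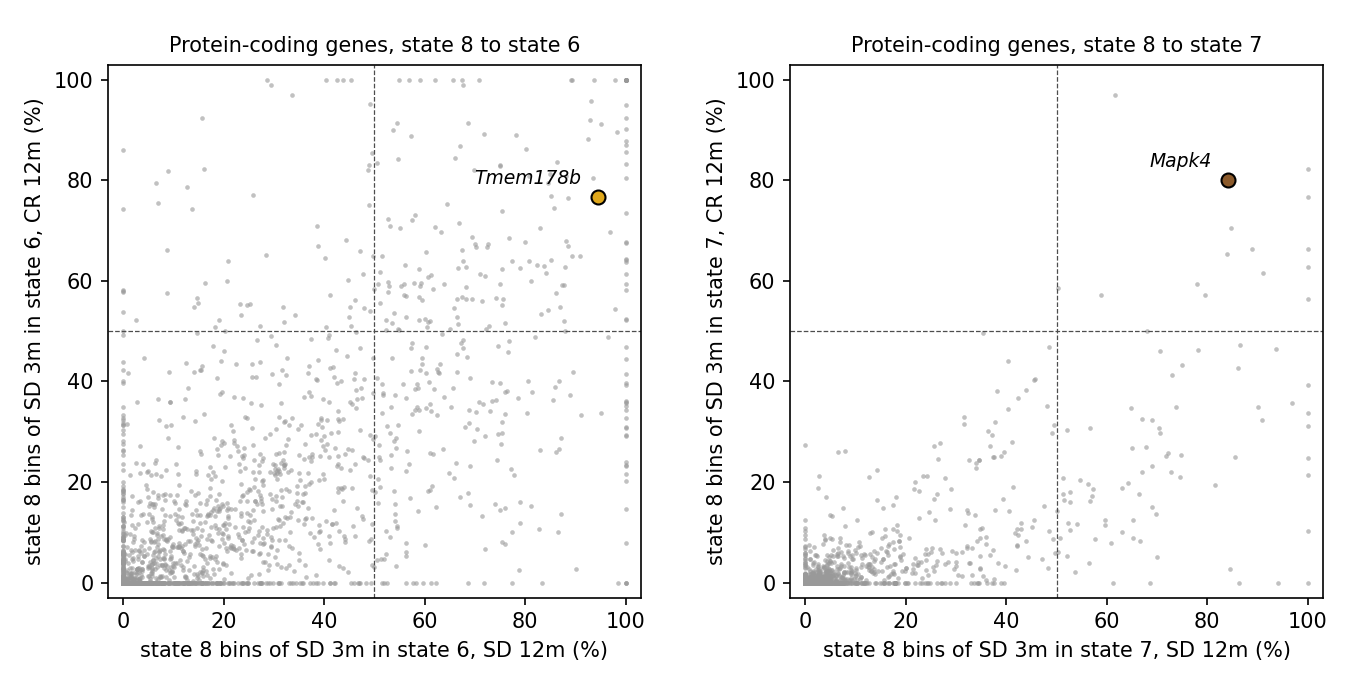
Each grey point is a protein-coding gene with at least 100 bins in state 8 in SD 3m (4199 genes), by the percent of those bins in state 6 (left) or state 7 (right) in SD 12m (x axis) and CR 12m (y axis); dashed lines mark 50% and the large points the 2 genes described. Tmem178b lies at 94.42% and 76.77%, among many genes with high shares, and Mapk4 at 84.16% and 80.16%, where few genes lie.

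The 12-month groups differed in 3.66% of the bins of Mapk4, against 17.61% for Tmem178b. In the same order of groups, the states were 8, 7 and 7 over 100.2 kb (73.35% of the gene), 8 in all over 19.8 kb (14.49%), 7 in all over 11.6 kb (8.492%) and 8, 7 and 8 over 5.0 kb (3.66%). Within the gene, state 7 in CR 12m lay wholly within state 7 in SD 12m. Across the genome, 81.03% of the bins that went from state 8 to state 7 in CR 12m were in state 7 in SD 12m too, but 25.45% of those that did so in SD 12m were in state 7 in CR 12m. For state 6 the shares were 66.91% and 40.78% in the same order. Mapk4 was chosen by its stretch in CR 12m, where changed bins were more often shared with SD 12m. Tmem178b was chosen by its stretch in SD 12m, where changed bins were less often shared with CR 12m. The smaller difference between the 12-month groups in Mapk4 than in Tmem178b may thus follow in part from how the genes were chosen.

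In SD 12m the main stretch of state 7 measured 115.8 kb, from 29.5 kb after the TSS to 145.3 kb, beyond the 3′ end of the gene. In CR 12m it measured 108.0 kb, from 29.7 to 137.7 kb. The edge toward the TSS was thus at nearly the same place in both diets, 1 bin apart, and the far edge differed by 7.6 kb. The stretch enclosed the 11.6 kb that was already in state 7 at 3 months, and the part after it, 93.2 kb in chr18:73927201-74020400, was the stretch by which the gene was chosen. In SD 12m 100% of that part was in state 7.

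A smaller piece of state 7 lay between the main stretch and the TSS, 8.4 kb long in SD 12m (10.9 to 19.3 kb) and 5.0 kb in CR 12m (11.3 to 16.3 kb). In SD 12m a further piece of 1.8 kb covered the TSS itself, from 0.5 kb before to 1.3 kb after it. In CR 12m the TSS lay in a stretch of 26.0 kb in state 8. Of the 20 bins within 2 kb of the TSS, 9 were in state 7 in SD 12m and 0 in SD 3m and CR 12m. This window of 4001 bases had 45.25 CpG per kb, against 15.22 per kb over the whole gene. The internal start in intron 2 went from state 8 in all 20 bins to state 7 in all 20 in each older group.

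In intron 1, state 7 covered 12.39% of the 468 bins at 3 months, 78.85% in SD 12m and 73.72% in CR 12m. Introns 2 to 5 and exons 2 to 6 went from 0% to 100% in both older groups. Exon 1, which lies in 1 bin, was in state 7 in SD 12m and in state 8 in SD 3m and CR 12m.

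The Mapk4 stretch had a higher GC content and fewer repeats than the rest of the DNA that entered state 7. The bins that went from state 8 to state 7 in CR 12m had a GC content of 37.45% and a repeat share of 41.91% across the genome, whereas the 93.2 kb stretch had 47.65% and 18.33%. Of the 5 longest stretches from state 8 to state 7 in CR 12m, those in Camkmt and Smyd3 also had few repeats (20.91% and 20.03%). Their GC contents were 43.98% and 42.38%. The stretches of 73.6 and 65.6 kb had repeat shares of 51.79% and 53.97%. Within Mapk4, repeats made up 20.49% of the bins that moved in SD 12m and 24.15% of those that stayed, and 20.21% and 24.52% in CR 12m. For Tmem178b the stretch had a GC content of 43.51% and a repeat share of 19.08%, against 41.61% and 28.5% for all bins that went from state 8 to state 6 in SD 12m. These are descriptions without a test.

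Outside Mapk4 the older groups differed. In the 100 kb downstream, state 7 covered 2.8% at 3 months, 20% in SD 12m and 4.6% in CR 12m, and state 6 covered 10.6%, 36.4% and 16.6% there. State 8 covered 54.4%, 10.2% and 47.8%. In SD 12m the state 7 stretch was followed by a gap of 5.2 kb in state 8, which was wholly repeat, and by 26.6 kb in state 6, most of which was in state 8 in CR 12m. Mro, which encodes the protein maestro, lies in this flank, and its most frequent state was state 6 in each group (35.81%, 33.11% and 37.16% of its bins). In the 100 kb upstream, state 7 covered 0%, 0.4% and 2.0%. A domain of 15.4 kb in state 6 (73.9 to 58.5 kb before the TSS) was lost in both older groups, and LOC115488996, a small nuclear RNA gene of 1 bin within it, went from state 6 to state 8.

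The noncoding genes near Mapk4 were mixed. D730045A05Rik, which lies inside intron 1 on the opposite strand, went from state 8 to state 7 in all 10 of its bins in both older groups. Gm9925, which starts 0.105 kb before the Mapk4 TSS and runs the other way, had its TSS in state 8 in SD 3m and CR 12m and in state 7 in SD 12m. Gm32801, 24.49 kb upstream, had its TSS in state 1, the active TSS state, in each group. The TSS of Gm32661 was in state 7, and that of Gm52346 in state 3, in each group.

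The lengths that chose the genes stood as follows. Of 17592 stretches from state 8 to state 6 in SD 12m, with a median of 7.8 kb, the longest was the 307.2 kb in Tmem178b and the next was 191.4 kb, of which 6.575% lay in Shisa6. The others of the 5 longest measured 190.6 kb (no gene), 184.8 kb (Pld5 and Gm46173) and 163.4 kb (no gene). Of 16508 stretches from state 8 to state 7 in CR 12m, with a median of 3.4 kb, the longest was the 93.2 kb at Mapk4 and the next was 81.6 kb, wholly within Camkmt. The others measured 73.6 kb (of which 0.1807% lay in Gm22944), 65.6 kb (no gene) and 64.4 kb (Smyd3 and Gm31349).

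**Figure D5:**
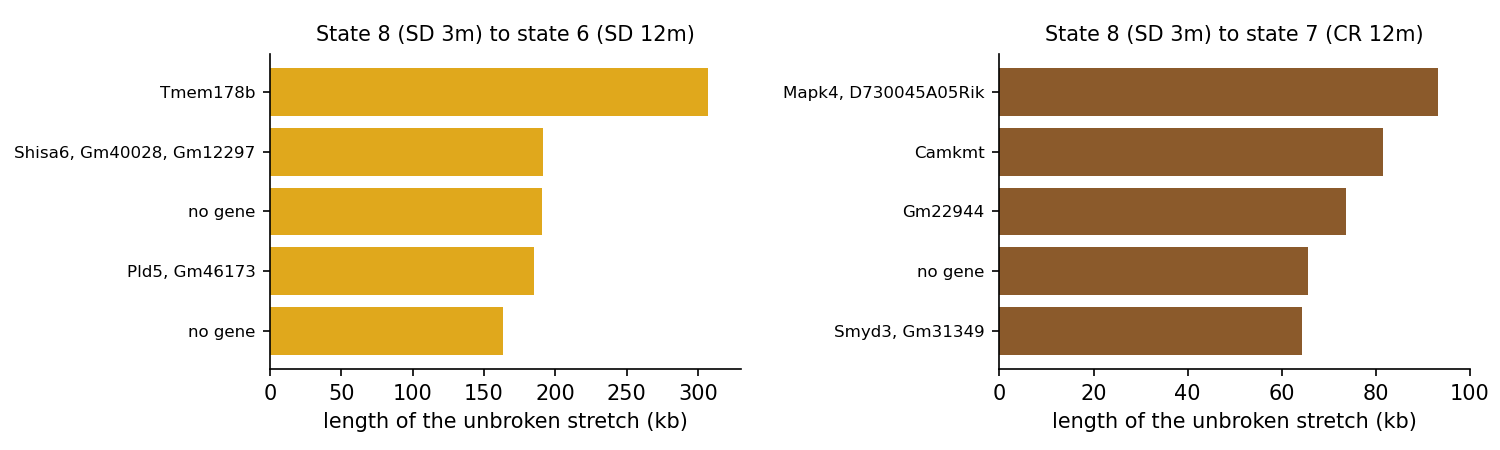
Length in kb (x axis) of the 5 longest unbroken stretches that left state 8 for state 6 in SD 12m (left) or for state 7 in CR 12m (right), labelled with the genes they overlap. The stretches of 307.2 kb in Tmem178b and 93.2 kb at Mapk4 are the longest of their kind, and the next are 191.4 and 81.6 kb.

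The lead of each gene depended on the group. Of the stretches from state 8 to state 6 in CR 12m, the longest was 127.4 kb, elsewhere on the same chromosome, and Tmem178b was not among the 5 longest. Of the stretches from state 8 to state 7 in SD 12m, the longest was 277.4 kb in a region with no gene, and Mapk4 was not among the 5 longest.

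Both genes were long with few exons. Among the 2313 protein-coding genes of 100 kb or more, the median exon number was 16, against 4 in Tmem178b (place 2195 from the highest) and 6 in Mapk4 (place 2044). State 8 covered 96.25% and 91.51% of them at 3 months, against a median of 55.26% in the long genes. The genes were chosen for a long stretch in state 8 at 3 months. Their length and their share of state 8 therefore follow in part from that choice. Their GC contents were 43.65% and 47.2% (median 42.1%) and their repeat shares 20.75% and 20.68% (median 25.6%).

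The genes of 100 kb or more with the most similar patterns were found from the sum of absolute differences over 24 shares, 8 states in 3 groups. For Tmem178b these were Brinp2 (22.7 percentage points), Galnt14 (25.67) and Tnni3k (36.01). State 6 covered 0%, 88.47% and 76.4% of Brinp2, 6.556%, 86.7% and 76.27% of Galnt14 and 8.841%, 85.07% and 79.79% of Tnni3k in SD 3m, SD 12m and CR 12m. In each of them the TSS went from state 8 to state 6 in both older groups, whereas that of Tmem178b was in state 6 at 3 months. For Mapk4 the nearest genes lay further away, Tspan5 (83.9 points), Grik2 (86.99) and Cdh7 (124.2). State 7 covered 0%, 76.82% and 63.5% of Tspan5, 1.784%, 86.77% and 47.67% of Grik2 and 1.908%, 96.06% and 36.9% of Cdh7. All were lower than Mapk4 in CR 12m (81.84%), the group by which Mapk4 was chosen. In SD 12m, Grik2 and Cdh7 were higher than Mapk4 (85.51%) and Tspan5 was lower. The TSS of Tspan5 was in state 6 in each group, and that of Grik2 in state 6 in SD 12m only. That of Cdh7, like that of Mapk4, was in state 7 in SD 12m and in state 8 in SD 3m and CR 12m.

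Most genes that work with or resemble the members had their TSS in promoter or enhancer states. The share of all protein-coding genes with such a TSS was not calculated, so these counts are a description only. Of 9 genes of the atypical kinases and their partners (Mapk6, Mapk15, Nlk, Mapkapk5, Septin7, Pak1, Pak2, Pak3 and Dusp2), the TSS of 8 lay in states 1 to 5 in SD 3m and SD 12m and of 7 in CR 12m. The TSS of Mapk6, which encodes the close relative ERK3, and that of Mapkapk5 were in state 1 in each group. Pak1, which encodes a p21-activated kinase, was the only gene of this list with at least 100 bins in state 8, and 0% of them went to state 6 or state 7. Pak3, another p21-activated kinase gene, lies on chromosome X, unlike Tmem178b and Mapk4. The paper describes the Polycomb state as the one with the strongest enrichment on that chromosome. The part of chromosome X in the values of Pak3 was not tested. Pak3 had its TSS in state 6 in each group, with 93.41%, 100% and 57.23% of its body in that state. It had 92 bins in state 8 at 3 months, too few for the call, and 100% of them were in state 6 in SD 12m and 20.65% in CR 12m. Dusp2, which encodes a phosphatase of these kinases and is only 2.2 kb long, had 0% of its body in state 6 in SD 3m and SD 12m and 100% in CR 12m. Of the 10 other mitogen-activated protein kinase genes, 9, 8 and 9 had their TSS in states 1 to 5. Mapk10 was an exception in each group, joined by Mapk8 (state 7) in SD 12m. Mapk10 encodes JNK3, found mainly in neurons, and was the only gene of this list with enough bins. It had 23.05% of its state 8 bins in state 6 in SD 12m and 6.803% in CR 12m, and was not called.

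Of Tmem178, Stim1, Stim2, Orai1 and Nfatc1, the paralog of Tmem178b and genes of the calcium entry it acts on, all 5 had their TSS in states 1 to 5 in each group and none had 100 bins in state 8. Tmem178 itself had 17.48% of its body in state 6 in SD 3m and 0% in SD 12m and CR 12m, the opposite direction to Tmem178b. Among the neuron markers, 2 of 3 were called for state 6 in SD 12m and 1 of 3 in CR 12m, against 8.95% and 5.74% of all 4199 genes, with medians of 74.58% and 47.03%. Syt1, which encodes a synaptotagmin, was not called, with 0.2278% and 0%. Of the markers of other liver cells, Ptprc (CD45, on leukocytes) was the only gene with enough bins, and 100% and 39.22% of them were in state 6 in SD 12m and CR 12m. The part of the mixture of cells in the values of Tmem178b and Mapk4 was not tested.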

How the data were processed

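Group labels came from the sample labels. Per the methods of the study, the authors aligned the reads to mm10, filtered them and merged the libraries of a group for each mark, binarized the merged signal with ChromHMM, trained 1 model with 8 states and assigned a state to every bin of 200 bp. The submitters' processing notes name BWA 0.6.2-r126 and SAMtools 0.1.18. The deposited value is a label from 1 to 8, not a signal, and its read depth is unknown. SD 6m was not analysed here.

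Labels were analysed in Python 3.11.15 with numpy 2.4.6, pandas 2.3.3 and matplotlib 3.10.9. Bins were given to a gene by their midpoint (longest curated RefSeq transcript, GRCm38.p6), and exons by any overlap. Repeats are bases in lower case in the reference. Flanks measure 100 kb and promoter windows 2 kb on each side of the TSS. The calculation was tested on simulated labels over 274 genes of chromosome 19, where it made 0 wrong calls. Wilson 95% limits of the gene body shares lay at most 3.06 percentage points from them. They count neighbouring bins, which are not independent, and say nothing of mice.

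The genes, lists and comparisons were chosen with earlier results of these data known. The genes named are the 2 members, all RefSeq genes over them and their flanks, those in the 5 longest stretches, the 3 nearest patterns and the lists. The Tmem178b promoters were 2 of those in a RefSeq table of mouse promoters. Alternatives were another gene interval, whole bins only, stretches of at least 1 kb, windows of 10 kb, dropping bins near (1 kb) a state boundary or mostly repetitive bins, and other flanks, promoter windows, gene sizes and call thresholds.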

Additional observations from a re-analysis of the deposited data

Results flagged for a closer look

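In the 100 kb upstream of Mapk4, 2 enhancer states moved in opposite directions in the older groups, by 2 percentage points or more each. The active enhancer state 3 covered 3.4% of this flank at 3 months, 1.2% in SD 12m and 6.4% in CR 12m, and the poised enhancer state 5 covered 4.6% at 3 months, 11.8% in SD 12m and 1.2% in CR 12m. These bins lay around the TSS of Gm32801. With 1 segmentation a group, the difference between the diets was not tested.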

How the results depend on the processing

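No paired analysis was possible because each group has 1 segmentation and no result comes from a test. Of 90 values recomputed under an alternative, 66 stayed within the Wilson 95% limits of the reported value (for counts of genes, within 1.5 times) and 24 moved. With the most frequent state in 10 kb windows, state 6 covered 4.846% of Tmem178b at 3 months, 92.18% in SD 12m and 80.41% in CR 12m, 91.79% and 79.41% of its state 8 bins left state 8, and state 7 covered 81.7% of Mapk4 in SD 12m with 80.25% of its state 8 bins leaving. Without mostly repetitive bins, state 6 covered 96.35% of Tmem178b in SD 12m and 96.21% of its state 8 bins left. With flanks of 50 kb, state 6 covered 52.0% upstream of Tmem178b in SD 12m and 49.2% in CR 12m, and 39.6%, 100.0% and 95.6% downstream in SD 3m, SD 12m and CR 12m. State 7 then covered 5.6%, 35.2% and 9.2% downstream of Mapk4 and 0.0% upstream in CR 12m. Within 1 kb of the Mapk4 TSS, 70.0% was in state 7 in SD 12m. With a call at 75%, genes called for state 6 fell to 3.739% (SD 12m) and 2.024% (CR 12m), and for state 7 to 0.7621% and 0.09526%, Tmem178b and Mapk4 still among them. With at least 500 bins in state 8, 3.321% were called for state 7 in SD 12m. No alternative turned the direction of a change from SD 3m in either gene. Depth, the number of animals and the merging of libraries could not be varied.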
